A study of Rattus norvegicus with 6 samples.

Results

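The nuclear-encoded subunits of the mitochondrial respiratory chain and of ATP synthase were compared between the renal cortex of rats given N,N'-dinitrosopentamethylenetetramine (DNPT) and of rats given its vehicle. Members were chosen by a gene symbol rule that uses no measured value, but with earlier results of these data known. They are genes whose symbol begins with Ndufa, Ndufb, Ndufc, Ndufs, Ndufv, Uqcr, Cox4, Cox5, Cox6, Cox7, Cox8 or Atp5, and Sdha to Sdhd and Cyc1, with the Ndufaf assembly factors left out. The arrays held 136 probes for 77 such genes, out of 15645 genes to which a probe could be matched. They comprised 31 genes of complex I, 4 of complex II, 8 of complex III, 18 of complex IV and 16 of complex V. Ndufa4 was counted under complex IV, where its protein resides, and Cox6c-ps1 is a transcribed pseudogene of Cox6c. The rule covers 111 protein-coding genes in RefSeq, of which 35 had no matched probe and are not analysed here, among them Cyc1, Cox7a1, Ndufa13 and Atp5mc3.

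All 6 animals were male rats of the Sprague-Dawley stock Crl:CD(SD), bought at 5 weeks of age and kept on a basal diet. DNPT is an N-nitroso compound. The 3 DNPT rats received 200 mg/kg/day for 4 weeks and the 3 vehicle rats received corn oil for the same 4 weeks. The labels call the samples biological replicates, 1 array per rat, and with 3 arrays in a group the errors are wide. Levels below are log2 signals relative to the 75th percentile of the array, so that 0 is that percentile and 1 unit is a doubling of signal, and a difference is the DNPT mean minus the vehicle mean on that scale. Levels of different probes are not compared, because probes differ in how brightly they bind.

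The respiratory chain passes electrons from NADH (complex I) and succinate (complex II) through coenzyme Q to complex III, and from there through cytochrome c to oxygen at complex IV. Complexes I, III and IV pump protons across the inner mitochondrial membrane, and complex V, the ATP synthase, uses the resulting gradient to make ATP. In the kidney cortex, the proximal tubule reabsorbs most of the filtered solute and depends on this oxidative ATP supply, so its cells are rich in mitochondria. Most subunits are encoded in the nucleus. Some core subunits of complexes I, III and IV and a part of the proton channel of ATP synthase are encoded in mitochondrial DNA. No probe matched any of the 26 mitochondrial gene symbols looked for.

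Many nuclear genes for these subunits are known to be controlled by the factors NRF1, GABP (an ETS-family factor) and YY1. Promoters from RefSeq (assembly GRCr8, a short window around the annotated start, mostly upstream of it) matched 67 of the 77 members. The promoters of 4 of the members with differences at p under 0.05 are shown, so that the letters searched can be seen in place. They are examples and not the 4 with the smallest p. Each holds a match, as 41 of the 67 member promoters do. Capitals mark matches, on either strand, to GCGCANGCG (the NRF1 letters), CCGGAAG (ETS) or AAGATGG (YY1), where N is any base. The Ndufa5 promoter lies at chr4:53971186-53971485 on the minus strand, that of Atp5me at chr14:1464610-1464909 on the plus strand, that of Cox5b at chr9:46417587-46417886 on the plus strand and that of Cox6b1 at chr1:95009803-95010102 on the minus strand. Each is written 5′ to 3′ along its gene.
Ndufa5: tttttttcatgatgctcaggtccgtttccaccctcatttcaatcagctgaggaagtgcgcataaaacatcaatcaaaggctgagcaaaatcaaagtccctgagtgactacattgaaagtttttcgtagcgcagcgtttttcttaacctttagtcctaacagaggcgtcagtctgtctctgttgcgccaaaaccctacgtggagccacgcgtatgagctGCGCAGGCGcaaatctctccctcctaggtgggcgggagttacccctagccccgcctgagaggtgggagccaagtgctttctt
Atp5me: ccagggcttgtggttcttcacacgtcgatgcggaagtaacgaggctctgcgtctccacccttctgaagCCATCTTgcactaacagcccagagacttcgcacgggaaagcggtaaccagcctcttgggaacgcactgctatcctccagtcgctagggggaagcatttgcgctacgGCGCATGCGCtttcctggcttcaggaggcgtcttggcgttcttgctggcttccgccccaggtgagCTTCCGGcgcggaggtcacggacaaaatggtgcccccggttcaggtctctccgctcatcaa
Cox5b: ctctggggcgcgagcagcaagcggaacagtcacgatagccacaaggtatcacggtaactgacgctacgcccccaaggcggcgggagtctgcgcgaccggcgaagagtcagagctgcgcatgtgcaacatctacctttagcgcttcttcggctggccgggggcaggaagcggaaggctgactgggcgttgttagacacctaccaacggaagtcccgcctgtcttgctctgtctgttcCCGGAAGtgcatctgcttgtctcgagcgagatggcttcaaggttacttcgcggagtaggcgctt
Cox6b1: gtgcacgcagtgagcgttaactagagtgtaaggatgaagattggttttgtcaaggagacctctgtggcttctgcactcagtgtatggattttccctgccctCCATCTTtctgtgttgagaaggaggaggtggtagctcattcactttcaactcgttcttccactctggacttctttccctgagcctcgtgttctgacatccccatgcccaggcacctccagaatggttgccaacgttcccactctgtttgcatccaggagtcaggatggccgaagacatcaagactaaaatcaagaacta
Ndufa5 holds 1 NRF1 match. Atp5me holds 4 matches, of which 2 are overlapping NRF1 matches on opposite strands. Cox5b holds 1 ETS match and Cox6b1 holds 1 YY1 match.

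The NRF1 letters were found in 16 of the 67 member promoters (23.9%), against 5.80% of all 33469 promoters in the table. For the ETS letters the counts were 20 of 67 (29.9%) against 8.75%, and for the YY1 letters 16 of 67 (23.9%) against 7.01%. At least 1 of these 3 was present in 41 of 67 (61.2%), against 19.1% of all promoters. The NRF1 letters occurred in 8 of 28 complex I promoters and 5 of 15 complex V promoters, but in 1 of 14 complex IV promoters. The other words searched on both strands, the Sp1 word GGGCGG (41.8% of members, 33.1% of all), the estrogen-related receptor word TCAAGGTCA (1.49%, 0.433%), the E-box CACGTG (5.97%, 6.42%) and the TATA word TATAAA (7.46%, 14.2%), differed less in absolute share. A match is a description of letters, not a measured binding site. The comparison promoters were not matched to the members by gene type or base content, so higher shares cannot be called particular to these genes. Members with an NRF1 match had a median difference of 0.17 and members without one 0.12, while the medians with and without a match were 0.14 and 0.13 for the ETS letters and 0.13 and 0.13 for the YY1 letters. These gaps were not tested.

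Of the 77 members, 76 were tested, with 133 probes that were all well above background on all 6 arrays, and no member spot was saturated. The 1 untested member was Cox8c, the testis form of a complex IV subunit, which was not well above background on any array. By mean signal, 70 of the 76 lay among the brightest 10% of the 34915 features tested (12687 named genes and single unnamed probes). The mean level of 12 proximal tubule markers, among them Slc5a2, Lrp2 and Slc34a1, ran from 6.54 to 6.73 in vehicle rats. In DNPT rats it ran from 6.70 to 6.97. No other part of the kidney was set beside them, so these levels do not show that the samples are cortex alone. Slc7a13, also of that list, was at 5.20, 2.77 and 4.78 in vehicle rats and 3.11, 5.23 and 3.92 in DNPT rats. The cause of that spread was not tested. Slide and scan day were shared by the 3 vehicle arrays and DNPT 1, whereas DNPT 2 and DNPT 3 were on a second slide, so the values of these 2 rats cannot be told apart from the slide. Probes well above background numbered 44853, 45167 and 44730 in vehicle 1 to 3 and 42985, 43402 and 42116 in DNPT 1 to 3. The 75th percentile of the processed signal was 1247, 1329 and 1164 in vehicle rats and 1112, 953 and 996 in DNPT rats. Both were thus lower on every DNPT array, DNPT 1 included, than on any vehicle array. Array brightness therefore cannot be told apart from treatment, and its part in the differences was not tested.

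No respiratory chain or ATP synthase gene differed between DNPT and vehicle rats after adjustment. Under limma with Benjamini-Hochberg adjustment over all 34915 features, 0 of 76 members passed an adjusted p of 0.05, nor did any feature (0.0% of 34915), and the smallest adjusted p of a member was 0.386 (Ndufa5). The subunits were nevertheless mostly on the same side. In 67 of 76 members (88.2%) the DNPT mean was above the vehicle mean, against 51.9% of all features. The median difference was 0.13, a ratio of 1.09, beside a median of 0.01 over all features. At an unadjusted p under 0.05, 10 members were higher and 1 was lower, against 5.95% and 6.16% of all features. All 3 DNPT rats lay above all 3 vehicle rats in 35 members (all features 11.9%) and below them in 1 (all features 8.32%). The count of members at p under 0.05 depended on single rats: it was 1 without vehicle 1, 1 without vehicle 2, 6 without vehicle 3, 22 without DNPT 1, 1 without DNPT 2 and 0 without DNPT 3. The share of all features at p under 0.05 was not counted in these refits, so the counts have no background beside them. Without DNPT 1, which leaves slide and treatment inseparable, 623 features and 1 member (Cox7c) passed the adjusted threshold.

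The side taken by the subunits was that of other genes of like brightness. The 1056 features that are no members and whose mean level lay between 5.24 and 6.97, the middle 50% of the members, had a median difference of 0.12, and 78.5% of them were higher in DNPT rats. Among those features 11.2% were higher and 1.23% lower at p under 0.05, and the groups did not overlap in 33.0% (DNPT above) and 2.08% (DNPT below). The members' median by rat was -0.03, -0.02 and 0.04 in vehicle 1 to 3 relative to the vehicle mean, and 0.09, 0.18 and 0.14 in DNPT 1 to 3. Each DNPT rat was thus above each vehicle rat, and DNPT 1, which shared the slide of the vehicle rats, had the smallest shift. In the like-signal features the DNPT rats stood at 0.05, 0.14 and 0.17.

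After quantile normalization, which gives all arrays the same distribution of signals, the members' median difference was 0.02. The median over the like-signal features was then 0.01. Under that scaling 45 of 76 members were higher, beside 49.5% of all features and 53.7% of the like-signal features. At p under 0.05 there were then 0 members higher and 2 lower (Uqcrq and Cox6b2). Of all 34915 features 1801 were higher and 2134 lower at that threshold, and of the 1056 like-signal features 35 and 34. Cyclic loess gave a median of 0.01 and normexp background correction followed by quantile normalization gave 0.00, with 45 and 39 members higher. Scaling by the median of each array, which like the 75th percentile moves all probes of an array by the same amount, gave 0.15. The upward difference of the subunits was thus present with a single factor per array and about 0 under the 3 methods that adjust signals along the intensity range. A change in the share of a cell type and a change in RNA per cell cannot be told apart in these bulk samples.

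**Figure D1:**
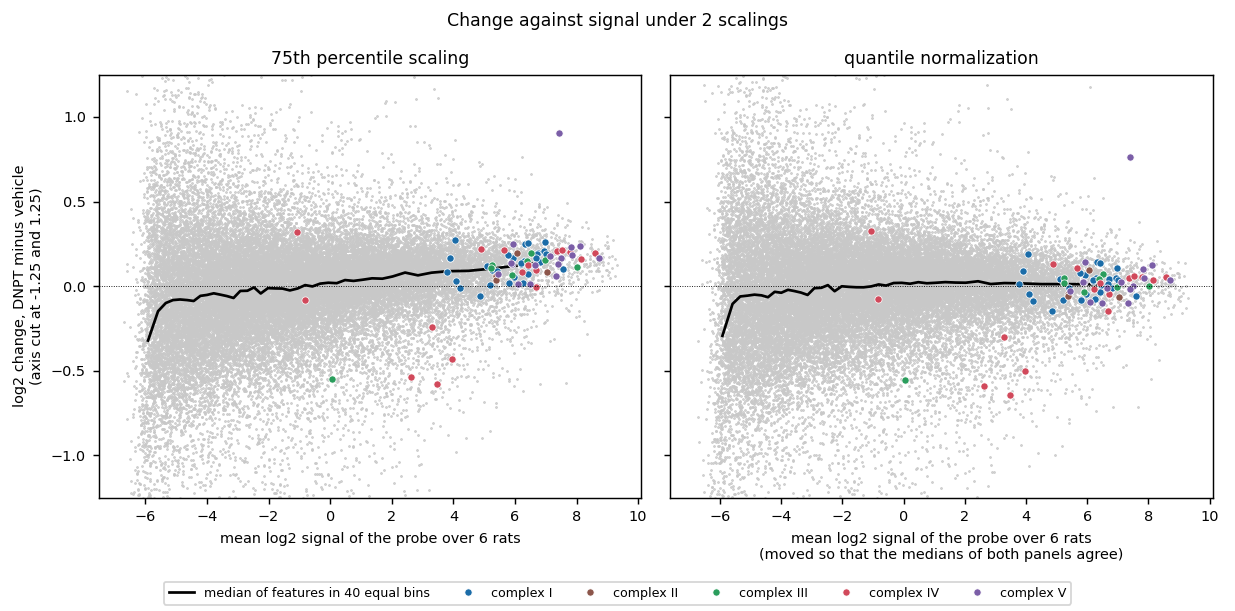
Difference between DNPT and vehicle rats (DNPT mean minus vehicle mean, log2) against mean level for all features (grey) and the 76 members (coloured by complex), on the 75th-percentile scale and after quantile normalization, with a line for the median of the features in 40 bins. The members lie at the bright end, where most features were above 0 on the first scale (members' median 0.13) and close to 0 on the second (0.02).

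Complex I, the NADH dehydrogenase and entry point of most electrons, had 29 of 31 members higher and 2 lower, with a median difference of 0.14. At p under 0.05 there were 3 higher and 0 lower, and the groups did not overlap in 15, all with DNPT above. Over all features the shares were 5.95% higher, 6.16% lower and 11.9% without overlap, DNPT above. In the like-signal features they were 11.2%, 1.23% and 33.0%. The complex I median by rat was -0.03, -0.01 and 0.04 in vehicle 1 to 3 and 0.10, 0.17 and 0.15 in DNPT 1 to 3. After quantile normalization the median was 0.03, with 20 of 31 higher.

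Ndufa5, an accessory subunit of the matrix arm, had the smallest p of any member. Its level was 6.86, 6.84 and 6.87 in vehicle 1 to 3 and 7.01, 7.18 and 7.17 in DNPT 1 to 3. The DNPT rats were all above the vehicle rats, with DNPT 1 the lowest of them. The difference was 0.26 (SE 0.08, limma adjusted p = 0.386 over all features), a ratio of 1.20, and was 0.11 after quantile normalization. Ndufv2, an iron-sulfur subunit of the NADH-binding module, was at 6.15, 6.21 and 6.26 in vehicle rats and 6.40, 6.50 and 6.48 in DNPT rats. Again the groups did not overlap, and the difference was 0.25 (SE 0.08, limma adjusted p = 0.389) and 0.15 after quantile normalization. Ndufa12, an accessory subunit next to that module, was at 6.26, 6.36 and 6.29 in vehicle rats and 6.46, 6.64 and 6.59 in DNPT rats. Its difference of 0.26 (limma adjusted p = 0.393) was 0.14 after quantile normalization. Its second probe gave 0.09.

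The other complex I members with small p were accessory subunits of the membrane arm. Ndufb9 had a difference of 0.19 (SE 0.08) and Ndufa1 of 0.19 (SE 0.08), without overlap of the groups, and both were 0.04 after quantile normalization. Ndufa10 had the largest difference of the complex, 0.27 (SE 0.12), but DNPT 1 at 4.01 lay below vehicle 3 at 4.03. Ndufv1, a core subunit which binds NADH and the flavin, had a difference of 0.15 (SE 0.08), and its groups did not overlap. Ndufs7 and Ndufs8, iron-sulfur subunits on the path to coenzyme Q, had 0.14 (SE 0.08) and 0.08 (SE 0.08). Ndufs1, the largest iron-sulfur subunit, was at 5.16, 5.18 and 5.25 in vehicle rats and 5.29, 5.21 and 5.10 in DNPT rats, a difference of 0.00 (SE 0.09). The accessory subunit Ndufa9, near the coenzyme Q site, had 0.03 (SE 0.08). In Ndufs1 and Ndufa9 the groups overlapped.

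Complex II, succinate dehydrogenase, also an enzyme of the tricarboxylic acid cycle, had all 4 members above 0 with a median difference of 0.07. A single one was without overlap (all features 11.9%, DNPT above). The largest was Sdhd, a membrane anchor, at 5.94, 5.90 and 6.06 in vehicle rats and 6.10, 6.26 and 6.11 in DNPT rats, a difference of 0.19 (SE 0.09, limma adjusted p = 0.437). Sdha, the flavoprotein that oxidises succinate, had 0.08 (SE 0.09), the iron-sulfur subunit Sdhb 0.06 (SE 0.07) and the other anchor Sdhc 0.04 (SE 0.09). These 3 overlapped between groups. The median by rat was 0.13 in DNPT 1 and 0.08 and 0.05 in DNPT 2 and DNPT 3, and vehicle 3 was at 0.07. After quantile normalization the median was -0.05, and only Sdhd of the 4 was above 0.

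Complex III, which passes electrons from coenzyme Q to cytochrome c, had 7 of 8 members higher, with a median difference of 0.12 (0.01 after quantile normalization). Its small subunit Uqcr11 was at 6.44, 6.46 and 6.42 in vehicle rats and 6.57, 6.66 and 6.67 in DNPT rats, without overlap, a difference of 0.19 (SE 0.08, limma adjusted p = 0.408). Its other 2 probes gave 0.16 and -0.02, so the value depends on the probe. Uqcrb, which helps form the coenzyme Q site, and the core protein Uqcrc1 were higher without overlap, by 0.15 (SE 0.09) and 0.13 (SE 0.07). Uqcrc2, the second core protein, had 0.11 (SE 0.11) and the Rieske iron-sulfur protein Uqcrfs1 0.07 (SE 0.11), with overlap. Cytochrome c1 (Cyc1) is not analysed here.

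Uqcrq, a small subunit beside cytochrome b, was the 1 member below its vehicle range in all DNPT rats. It was at 0.43, 0.42 and 0.11 in vehicle rats and 0.10, -0.34 and -0.45 in DNPT rats. DNPT 1 lay next to vehicle 3, and the 2 rats on the second slide were the low ones. The difference was -0.55 (SE 0.18, limma adjusted p = 0.393), and -0.56 after quantile normalization. A second Uqcrq probe was not well above background on any array, so the value rests on 1 probe.

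Complex IV, cytochrome c oxidase, was the least uniform of the larger complexes, with 11 of 17 tested members higher and 6 lower. The median difference was 0.13, with a middle 50% from -0.08 to 0.21. The 6 lower were the pseudogene Cox6c-ps1, the forms tied to other tissues Cox4i2, Cox6b2 and Cox6a2, and Cox7c and Cox5a. At p under 0.05 there were 3 higher and 0 lower, and in 7 the DNPT rats were all above the vehicle rats. The shares higher and without overlap were 5.95% and 11.9% over all features, and 11.2% and 33.0% over the like-signal features. Cox6b1, the subunit facing the intermembrane space, was at 5.50, 5.55 and 5.57 in vehicle rats and 5.71, 5.81 and 5.76 in DNPT rats. That difference was 0.22 (SE 0.08, limma adjusted p = 0.398), 0.11 after quantile normalization, and its other 2 probes gave 0.13 and 0.04. Cox6c, a membrane subunit, had 0.21 (SE 0.08) and 0.05 after quantile normalization. Cox5b, a zinc-binding subunit on the matrix side, was at 7.34, 7.42 and 7.48 in vehicle rats and 7.54, 7.71 and 7.64 in DNPT rats, a difference of 0.22 (SE 0.09, limma adjusted p = 0.413). Its other 2 probes gave 0.07 and -0.07, so the direction of Cox5b was not shared by all of its probes.

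Complex IV has subunits in tissue-specific forms, and the forms found in most tissues stood above 0 on the 75th-percentile scale, where Cox7a2 and Ndufa4 turned below 0 after quantile normalization. Cox6a1, the liver form, was at 8.46, 8.46 and 8.54 in vehicle rats and 8.58, 8.79 and 8.68 in DNPT rats, a difference of 0.19 (SE 0.09). Cox4i1 had 0.20 (SE 0.11), Cox8a 0.16 (SE 0.08), Cox7a2 0.08 (SE 0.08) and Ndufa4 0.10 (SE 0.08). Cox5a, a matrix-side subunit without such forms, had -0.01 (SE 0.12). Groups did not overlap in Cox6a1 and Cox8a and overlapped in the other 4. After quantile normalization these 6 lay between -0.15 (Cox5a) and 0.06 (Cox6a1).

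The forms tied to other tissues were less uniform. Cox4i2, the form known from lung and from low oxygen, was at 3.19, 3.13 and 2.35 in vehicle rats and 2.40, 2.36 and 2.31 in DNPT rats. The 3 DNPT rats and vehicle 3 were alike and vehicle 1 and vehicle 2 were high, so that the difference of -0.54 (SE 0.24, limma adjusted p = 0.425) comes with overlapping groups. Its second probe gave -0.25. Cox6b2, the testis form, was at 4.14, 4.11 and 4.27 in vehicle rats and 4.12, 3.66 and 3.45 in DNPT rats. That difference of -0.43 (SE 0.18) was -0.28 without DNPT 3. A second Cox6b2 probe was dim, from -3.94 to -3.35 in vehicle rats, and gave 0.14. Which probe reads Cox6b2 RNA was not tested. The muscle forms Cox8b and Cox6a2 had 0.32 (SE 0.25) and -0.08 (SE 0.28), both with overlap. Cox8b ran from 0.13 (without DNPT 2) to 0.52 (without vehicle 2) when 1 rat was left out, and was -0.03 on slide 1 alone. Skeletal muscle markers were low in these samples: the 4 tested of 5 had a median difference of -0.34 and a mean level from -4.44 to -3.88 in vehicle and from -4.65 to -4.54 in DNPT rats, and Mylpf was not tested. Their part in the values of the muscle forms was not tested.

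Complex V, the ATP synthase, had all 16 members above 0 on the 75th-percentile scale, with a median difference of 0.15, and 10 of 16 above 0 after quantile normalization, where the median was 0.02. At p under 0.05 there were 3 higher (all features 5.95%, like-signal features 11.2%). The groups did not overlap in 9 (all features 11.9%, like-signal features 33.0%, DNPT above). Atp5if1, the protein that inhibits ATP hydrolysis by the enzyme when the proton gradient fails, was at 5.88, 5.76 and 5.79 in vehicle rats and 5.98, 6.14 and 6.05 in DNPT rats. The difference was 0.25 (SE 0.09, limma adjusted p = 0.394), and 0.15 after quantile normalization. Atp5f1e, the epsilon subunit of the central stalk, was at 7.64, 7.66 and 7.80 in vehicle rats and 7.89, 7.998 and 7.91 in DNPT rats, a difference of 0.23 (SE 0.09). Atp5me, a membrane subunit at the dimer interface, was at 7.95, 7.93 and 8.08 in vehicle rats and 8.13, 8.32 and 8.22 in DNPT rats, a difference of 0.24 (SE 0.09). All 3 genes were without overlap, with limma adjusted p from 0.394 to 0.409.

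Other parts of the enzyme were also read, apart from Atp5po, which is described further on. Atp5mf, another membrane subunit, had 0.18 (SE 0.08) and Atp5pb, of the peripheral stalk, 0.16 (SE 0.09). Of the catalytic head, Atp5f1a (alpha) had 0.17 (SE 0.11) and Atp5f1b (beta, which holds the catalytic sites) 0.01 (SE 0.07). Atp5f1b was at 6.12, 6.05 and 6.08 in vehicle rats and 6.10, 6.13 and 6.06 in DNPT rats, with the groups interleaved. Atp5mc1 and Atp5mc2, which encode the same subunit c of the rotor ring, had 0.13 (SE 0.09) and 0.18 (SE 0.10), with overlap. After quantile normalization these 6 genes lay between -0.09 (Atp5f1b) and 0.05 (Atp5mf).

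**Figure D2:**
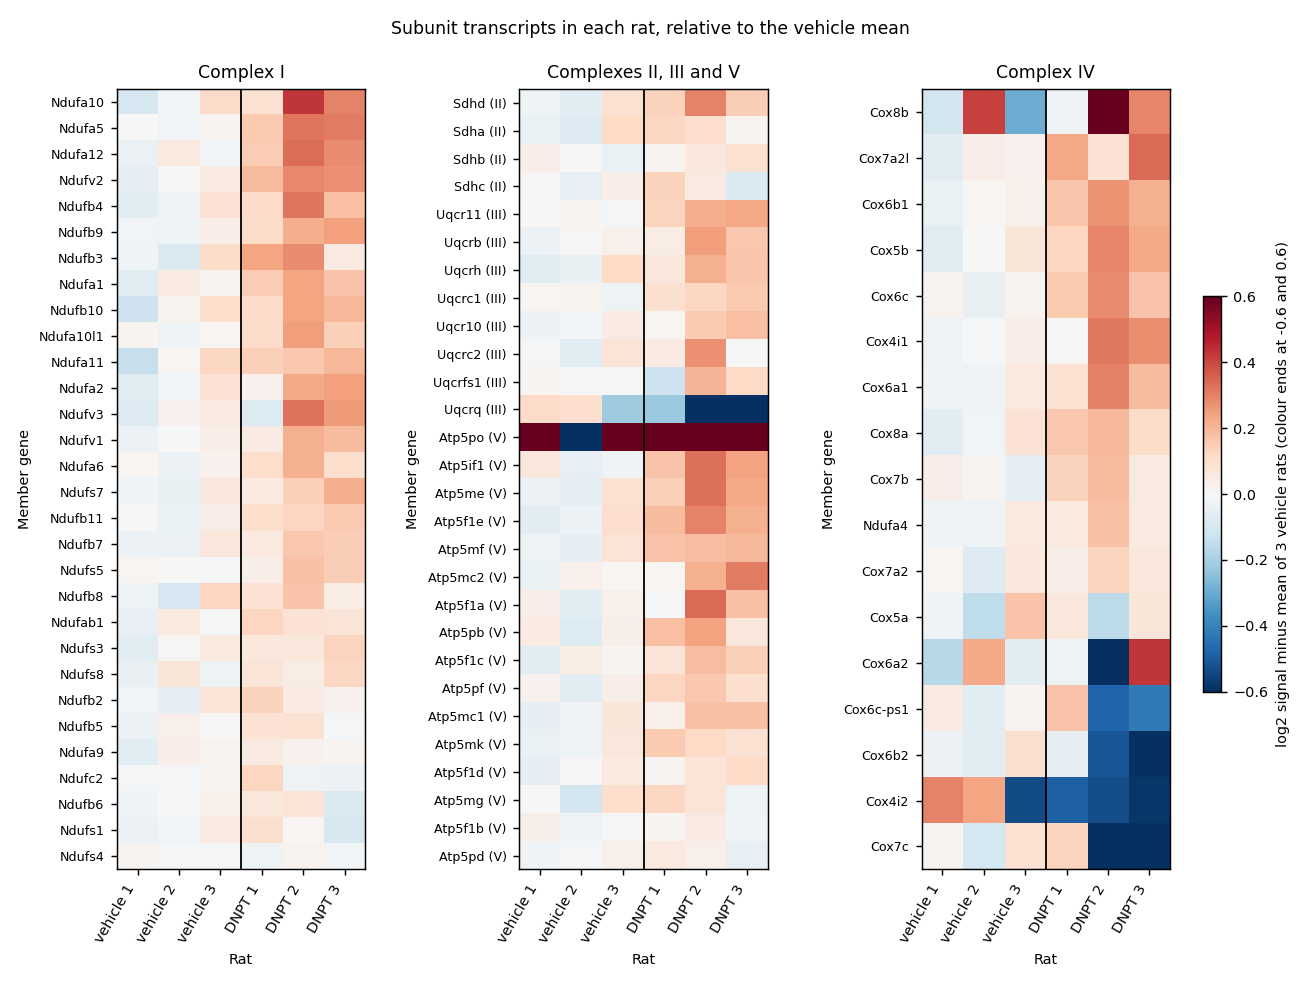
Colour map of the level of tested members (vertical axis) in each rat (horizontal axis) as the difference from the gene's vehicle mean (log2), in 3 panels by complex, with colours ending at -0.6 and 0.6. Most members are above 0 in DNPT 2 and DNPT 3 and by less in DNPT 1, and the darkest blue cells include Atp5po in vehicle 2 and Cox7c, Cox6b2 and Uqcrq in DNPT 2 and DNPT 3.

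**Figure D3:**
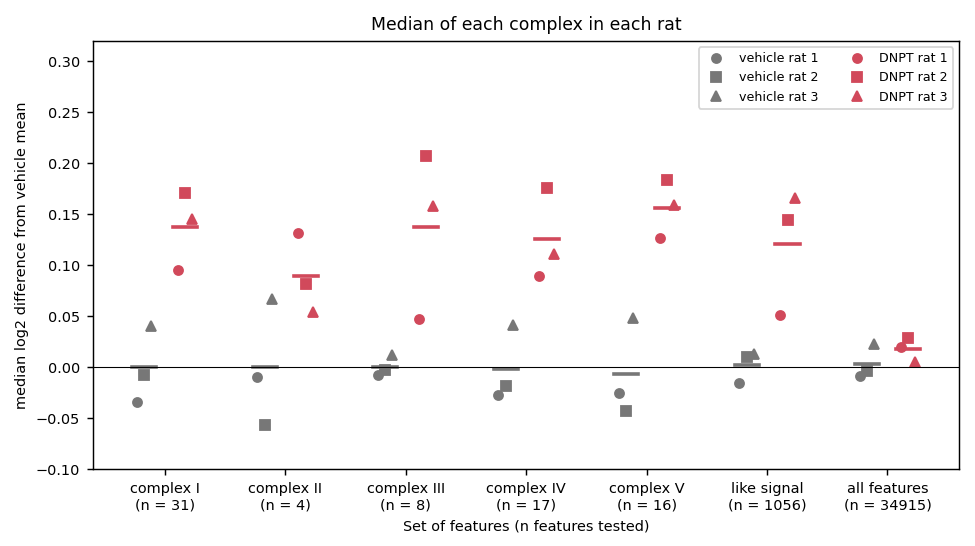
Median over the members of each complex of the difference from the vehicle mean (log2), 1 point per rat and horizontal bars for the mean of the 3 rats of a group, with the like-signal features and all features beside them. DNPT rats are at 0.10, 0.17 and 0.15 in complex I and at 0.05, 0.14 and 0.17 in the like-signal features, and in complex II vehicle 3 (0.07) lies above DNPT 3 (0.05).

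Between the complexes, the median differences ran from 0.07 (complex II) to 0.15 (complex V), and the SE of a single member was 0.09 at the median. Of the 76 differences 70 were under 0.3 in size. The 6 larger ones were Atp5po, Cox8b, Cox7c, Uqcrq, Cox4i2 and Cox6b2.

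Several member probes stood apart on single arrays. Atp5po, the OSCP subunit that ties the peripheral stalk to the head, was at 7.77, 5.39 and 7.75 in vehicle rats and 7.89, 7.93 and 7.81 in DNPT rats. Vehicle 2 alone was low, so the difference of 0.91 had an SE of 0.66, and it was 0.11 without vehicle 2. The second probe of Atp5mg, a membrane subunit, showed the same shape, at 6.66, 4.18 and 6.73 in vehicle rats and 6.78, 7.05 and 6.86 in DNPT rats, while the first probe had a difference of 0.06. Over all features, 23 were low in vehicle 2 alone by more than 2 and 77 in any other single array.

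Other probes were low on the second slide. Cox7c, a small subunit of complex IV, was at 3.79, 3.67 and 3.86 in vehicle rats, 3.91 in DNPT 1 and 2.70 and 2.97 in DNPT 2 and DNPT 3. Over all 6 rats the difference was -0.58 (SE 0.32, limma adjusted p = 0.473). Without DNPT 1, which leaves every DNPT array on the second slide, it was -0.94 (SE 0.12, limma adjusted p = 0.0481), the 1 member called under any alternative, and on slide 1 alone it was 0.13. The second probe of Ndufc2, a complex I membrane subunit, was at 2.15, 2.20 and 2.12 in vehicle rats, 2.21 in DNPT 1 and 0.30 and 0.55 in DNPT 2 and DNPT 3, a difference of -1.13 beside 0.02 for its first probe. Of the 133 member probes 4 (Cox6b2, Cox7c, Ndufc2 and Uqcrq) had both second-slide rats more than 0.4 below all 4 other rats, a share of 3.01%. Over all features, which count 1 probe per gene, the share was 4.01%. These shares are of unlike units, and the Ndufc2 probe counted here is not the one that stands for the gene.

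**Figure D4:**
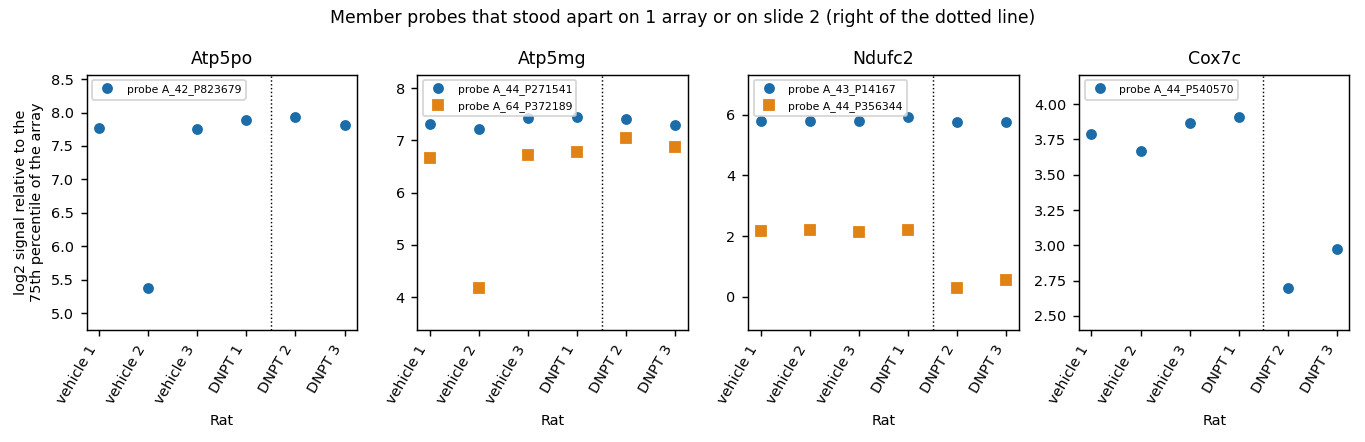
Level of each probe of Atp5po, Atp5mg, Ndufc2 and Cox7c in each rat (log2 relative to the 75th percentile of the array), with the second slide to the right of the dotted line. In vehicle 2, Atp5po is at 5.39 and a probe of Atp5mg at 4.18, and in DNPT 2 and DNPT 3 a probe of Ndufc2 is at 0.30 and 0.55 and Cox7c at 2.70 and 2.97.

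Of 40 members with more than 1 tested probe, 31 had all probes on the same side of 0 and 35 had differences within 0.3 of each other. The 5 with a wider range were Atp5mg, Cox6b2, Ndufc2, Cox6c-ps1 (-0.66 and -0.24) and Ndufab1, the mitochondrial acyl carrier protein (0.10, 0.07 and -0.24, the last from a dim probe). Pseudogenes or like copies named after the gene exist for 39 of the members, so that a probe could bind RNA of a copy, and the counts of these genes are uncertain to that extent. Members without such a copy had a median difference of 0.09.

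The assembly factors that build the complexes were mostly on the same side, and none passed the adjusted threshold in any of the lists that follow. Beside the counts below, 51.9% of all features were higher, and 5.95% were higher at p under 0.05. Of 11 tested complex I factors of 14, all were higher, 2 at p under 0.05, with a median of 0.12 and 0.09 after quantile normalization. The 3 with the smallest p were Ecsit (0.27, SE 0.09), Ndufaf3 (0.21, SE 0.08) and Ndufaf8 (0.17). Of 4 complex II factors, 2 were tested, with a median of 0.08 and -0.01 after quantile normalization, and Sdhaf2, which helps insert the flavin, had 0.22. All 6 complex III factors were tested and 5 were higher, with a median of 0.21 and 0.17 after quantile normalization, led by Lyrm7 (0.25, SE 0.10), Uqcc3 (0.23) and Ttc19 (0.19). Of 15 tested complex IV factors of 20, 14 were higher, 3 at p under 0.05, with a median of 0.15 and 0.09 after quantile normalization. They were Cox18 (0.31, SE 0.09), which inserts a core subunit into the membrane, the haem-related factor Surf1 (0.23, SE 0.09) and the copper chaperone Sco1 (0.20, SE 0.08). The 4 ATP synthase factors had a median of 0.04.

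Among genes of neighbouring steps, 11 of 13 tested genes of cytochrome c and coenzyme Q synthesis were higher (median 0.09, 0.02 after quantile normalization). Coq10b had 0.46 (SE 0.15), Coq9 0.31 (SE 0.10) and Coq8a -0.26 (SE 0.11). In the tricarboxylic acid cycle 11 of 13 were higher (median 0.05, -0.02 after quantile normalization), led by the isocitrate dehydrogenase subunits Idh3g (0.22, SE 0.08) and Idh3b (0.32, SE 0.13) and by Dlst (0.21). Of 9 tested carriers 7 were higher (median 0.14). The uncoupling protein Ucp2 had -0.46 (SE 0.10, limma adjusted p = 0.320), the smallest p of these mitochondrial lists, with no overlap and -0.45 after quantile normalization. Slc25a14 had 0.24 (SE 0.08) and the phosphate carrier Slc25a3 0.19.

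Of 15 regulators of mitochondrial biogenesis 13 were higher, with a median of 0.08 on both scales. Pprc1, a relative of the coactivator PGC-1alpha, had 0.31 (SE 0.10), on both scales, and the next by p were the mitochondrial DNA polymerase genes Polg2 and Polg. The coactivator genes Ppargc1b and Ppargc1a had 0.33 (SE 0.16) and 0.08 (SE 0.20). Of the transcription factor genes, Gabpa had 0.10 (SE 0.08), Tfam 0.04 (SE 0.08), Nrf1 0.01 (SE 0.11) and Esrra -0.04 (SE 0.08). These 6 were named after their values were seen. Import and cristae genes had 9 of 15 higher (median 0.07, -0.04 after quantile normalization), led by Tomm20 (0.23, SE 0.10). Mitochondrial antioxidant genes had 6 of 7 tested higher (median 0.12), led by Nnt (0.23, SE 0.09).

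Markers of cell types were read in the same fit, since cortex cell types differ in mitochondrial content. Proximal tubule markers had 11 of 12 higher and a median difference of 0.13 (0.05 after quantile normalization). That was close to the 0.13 of the subunits and also to the 0.12 of the like-signal features. The markers' median was 0.11, 0.30 and 0.11 in DNPT 1 to 3. They were led by the glucose transporter Slc5a2 (0.42), Fbp1 (0.26) and Slc22a8 (0.21). All 6 intercalated cell markers were higher (median 0.26), and the mean level of that list ran from 2.85 to 3.25 in vehicle rats and from 3.18 to 3.35 in DNPT rats. Distal convoluted and connecting tubule markers had a median of 0.26 over 4 tested of 6, and Trpm6 and Pvalb were not tested. Principal cell markers had a median of 0.10 and thick ascending limb markers, with 1 of 6 higher, -0.15. All of these types hold mitochondria, and the part of cell type shares in the subunit values was not tested.

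No marker of the other cell types passed the adjusted threshold either. The median was -0.20 for podocytes, 0.11 for endothelium, 0.06 for inner medulla, -0.06 for fibroblasts and matrix and -0.13 for fat. Macrophage markers had 0 of 5 tested higher (median -0.24) and lymphocyte markers 1 of 6 (median -0.58). The lymphocyte list had mean levels from -3.34 to -3.26 in vehicle rats and from -3.97 to -3.57 in DNPT rats. Its higher marker was the B cell gene Cd79b, with 1.14 (SE 0.20) and no value in DNPT 2, and the other 5 were lower. Cd163 and Cd79a were not tested. Red cell markers, with 5 of 5 higher, had a median of 0.34 and a mean level from 1.52 to 2.04 in vehicle rats and from 2.31 to 2.50 in DNPT rats. Their part in the subunit values was not tested.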

How the data were processed

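Cy3-labelled cRNA from the cortex of 6 rats was hybridised to 1-colour Agilent arrays, per the labels' protocols. Feature Extraction 10.7 read the scans, per the submitters' processing notes. The deposited scanner files hold an intensity per spot, the processed signal, corrected for background per the file headers. The deposited value table is a ratio: on each array 100% of probes equalled the processed signal divided by a constant near its 75th percentile, within 0.5%, without centring. Its column medians ran from 0.112 to 0.116, and the sources used here do not give the step that made it.

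Control spots and 113 outlier values were left out. Each array was scaled by taking log2 of its processed signals and subtracting their 75th percentile. Probes well above background on at least 3 arrays, with at least 2 values per group, were tested (44305 of 61537). Accessions were matched to RefSeq genes of GRCr8, used for names: 28206 probes matched 1 gene. A gene was its brightest tested probe, which gave 34915 features. Groups were compared over all features with limma 3.58.1 (R 4.3.3; lmFit and eBayes, two-sided, no covariates, Benjamini-Hochberg at 0.05). An exact permutation test of 3 against 3 cannot go below 0.1. On data simulated for the DNPT and vehicle comparison over 34915 features the fit was checked to recover known changes. The planted changes were far larger than the differences of most members, and no slide effect was simulated. The check therefore does not bear on differences of the members' size. Python 3.11.15, pandas 2.3.3 and matplotlib 3.10.9 made tables and plots.

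Members and lists were chosen with earlier results of these data known. Named members were the 5 (complexes I, IV and V) or 3 (II and III) with the smallest p, the catalytic and tissue-specific subunits, members with probes of both signs beyond 0.3 (none met this), and up to 3 genes of each other mitochondrial list. Cox7c, Atp5po, Ndufa10, Ndufc2, Atp5mg, Cox6c-ps1, Ndufab1 and the members in lists of counts were named after their values were seen. Alternatives were other scalings (median, quantile, cyclic loess), normexp with an offset of 50 on the median spot signal, the deposited table, stricter and absent background filters, the median over probes, array weights, an intensity trend, a block for slide or for replicate number, slide 1 by itself and each rat left out. Added after seeing the data were Ndufa4 under complex I, members without named copies, and all member probes. An item that falls under the naming rule is not reported here.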

Additional observations from a re-analysis of the deposited data

How the results depend on the processing

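No member passed the adjusted threshold under any alternative except Cox7c without DNPT 1, and features called were 2 under normexp and 1 with slide as a fixed block. The members' median stayed positive in all alternatives run. Its size depended on the intensity scale: with quantile normalization, cyclic loess and normexp, in this order, it was 0.0187, 0.0142 and 0.0035 over all members, 0.0280, 0.0225 and -0.0010 in complex I, -0.0532, -0.0473 and -0.0321 in complex II, 0.0104, 0.0147 and -0.0052 in complex III, 0.0175, 0.0070 and 0.0295 in complex IV and 0.0243, 0.0205 and 0.0338 in complex V. Under normexp 39 members were above 0. With slide as a fixed block, or on slide 1 alone, DNPT 1 is the only DNPT rat that bears on the medians, which were 0.0950 (I), 0.1314 (II) and 0.0472 (III). Members without a named copy had 0.0877. The count of members at p under 0.05, 11 as reported, was 2 with quantile normalization, 2 with cyclic loess, 3 with normexp, 7 without the background filter, 25 with an intensity trend, 23 with array weights, 0 with slide fixed, 0 on slide 1 alone and 6 with slide random. Apart from quantile normalization, the share of all features at that threshold was not counted in these refits, so the counts have no background. The cause of these moves was not tested.

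Replicate numbers did not pair the rats (correlations of deviations -0.18, -0.06 and -0.18 for numbers 1 to 3), and with the number as a block the count was 1. Leaving out each rat gave 0 to 623 features called, 0 to 1 members called, 0 to 22 members at p under 0.05, 63 to 68 members above 0, and medians from 0.1063 to 0.1601 over all members, 0.1035 to 0.1637 (I), 0.0493 to 0.1050 (II), 0.0989 to 0.1647 (III), 0.1214 to 0.1590 (IV) and 0.1194 to 0.1737 (V).

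Of 980 values of 49 named members under alternatives 904 kept their sign, and 43 of the 76 reversals came from the 3 intensity scales. Under normexp the reversed ones were Atp5f1b -0.1842, Atp5mc1 -0.0670, Atp5mg -0.1535, Atp5pb -0.0378, Ndufa1 -0.0497, Ndufa9 -0.0276, Ndufab1 -0.0015, Ndufc2 -0.0809, Ndufs1 -0.1147, Ndufs7 -0.0010, Ndufs8 -0.0132, Sdha -0.0227, Sdhb -0.0415, Sdhc -0.1136, Uqcrb -0.0484, Uqcrc2 -0.0021 and Uqcrfs1 -0.0688. Under quantile normalization they were Atp5f1b -0.0941, Atp5mc1 -0.0175, Atp5mg -0.0976, Cox7a2 -0.0154, Ndufa4 -0.0472, Ndufa9 -0.0445, Ndufc2 -0.0829, Ndufs1 -0.0803, Sdha -0.0659, Sdhb -0.0484, Sdhc -0.0579, Uqcrb -0.0057 and Uqcrfs1 -0.0373. Under cyclic loess they were Atp5f1b -0.1008, Atp5mc1 -0.0069, Atp5mg -0.0769, Cox7a2 -0.0356, Ndufa4 -0.0284, Ndufa9 -0.0512, Ndufab1 -0.0051, Ndufc2 -0.0887, Ndufs1 -0.0966, Sdha -0.0482, Sdhb -0.0465, Sdhc -0.0684 and Uqcrfs1 -0.0459. With slide fixed or on slide 1 alone they were Atp5f1a -0.0130, Cox5a 0.0663, Cox6c-ps1 0.1697, Cox7c 0.1348, Cox8b -0.0258 and Uqcrfs1 -0.1235. Cox5a was 0.0098 with slide random, 0.0141 with median scaling and 0.0084 with the median over probes. That probe rule also gave Cox5b -0.0689, Ndufc2 -0.5565, Ndufs1 -0.0402 and Uqcr11 -0.0120, and array weights gave Ndufc2 -0.0014 and Ndufs1 -0.0005. Leaving out 1 rat moved across 0 Atp5f1b (-0.0026 to 0.0328), Cox5a (-0.0832 to 0.0786), Cox6a2 (-0.3349 to 0.1990), Ndufc2 (-0.0330 to 0.0505), Ndufs1 (-0.0414 to 0.0534), Sdhc (-0.0157 to 0.0961) and Uqcrfs1 (-0.0021 to 0.1608).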
